A study of Mus musculus with 899 samples.

Results

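The 4 members described here are mmu-miR-1a-3p, mmu-miR-133a-3p, mmu-miR-133b-3p and mmu-miR-206-3p, taken by name from the 1915 miRNA of the deposited plasma count table and followed through every strain, treatment and time point. Plasma was drawn repeatedly from 196 mice of 2 strains, C3H (the substrain C3Hf/Sed/Kam) and C57Bl/6, both kept gnotobiotic and both with females and males. The mice received either a single dose of X-rays to the whole thorax, with the rest of the body shielded, or a sham exposure, and were sampled before exposure, at day 2 or day 5, and monthly until month 4 in C3H and month 6 in C57Bl/6. In C3H 64 mice were irradiated and 32 sham exposed, in C57Bl/6 68 and 32, and 899 samples in all were sequenced. Sham groups held 16 to 32 samples at each time point. Irradiated groups held 64 samples before exposure in each strain and shrank to 17 at month 4 in C3H and to 8 at month 6 in C57Bl/6, so the late irradiated groups hold only the mice that were still sampled.

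These miRNA are the classical muscle miRNA. miR-1 and miR-133a are abundant in heart and skeletal muscle, where miR-1 promotes differentiation and miR-133a is processed from the same primary transcript as miR-1. miR-206 and miR-133b form a corresponding pair that is largely restricted to skeletal muscle, where miR-206 is linked to myogenic differentiation, regeneration and the neuromuscular junction. A miRNA recognises its targets mainly through its seed near the 5′ end, and miR-1 and miR-206 share theirs, as do miR-133a and miR-133b. All 4 are used as plasma markers of muscle injury. In plasma, fewer releasing cells and less RNA released per cell cannot be told apart.

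The mature sequences below, from RefSeq for GRCm38.p6, show the seed that splits the members into their groups, with bases 2 to 8 in capitals.
miR-206-3p: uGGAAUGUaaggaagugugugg
miR-133b-3p: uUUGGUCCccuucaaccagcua
Among the 1738 mature miRNA of that table, which has no entry for miR-1a-3p or miR-133a-3p, the miR-206-3p seed was found in 3 and the miR-133b-3p seed in 1, so both counts leave out a member that shares the seed. Both sequences are 22 bases long and lie on the plus strand of chromosome 1, at chr1:20679055-20679076 for miR-206-3p and chr1:20682834-20682855 for miR-133b-3p. Their genes, Mir206 and Mir133b, were separated by 3686 bases and both overlapped exons of the gene Gm28653 in the GENCODE M21 annotation. Mir1a-1 and Mir133a-2 lay 9254 bases apart on chromosome 2, on the plus strand and outside any other annotated gene. miR-1a-3p and miR-133a-3p are named only. Because miR-133a-3p and miR-133b-3p are near-identical, the counting could have moved reads between them, and the low counts of miR-133b-3p are uncertain for that reason.

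The libraries held 206490 to 11814515 counted reads (median 1475030). Of the 1915 miRNA, 483 passed a filter on low counts, all 4 members among them. Levels are given as log2 CPM, the log2 of library-scaled counts (CPM, by edgeR's trimmed mean of M values) with a prior count of 2. The sample titles also carry a G number, G1 to G4, which the labels do not explain and which splits the mice into title sets. G1 and G3 were C57Bl/6, G2 and G4 were C3H, and only G1 and G2 were sampled after month 1. Values within these sets, which could be fitted apart up to month 1, are given beside the changes over time and the strain differences. The labels name no sequencing run, so time point and run cannot be told apart.

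miR-206-3p was the most abundant member, followed by miR-1a-3p and miR-133a-3p, while miR-133b-3p was scarcely detected. miR-206-3p had a median of 9547 reads per sample (range 70 to 208236), which was 0.700% of all reads, and ranked 25 among the 483 miRNA by mean log2 CPM. miR-1a-3p had a median of 2220 reads (19 to 154728), or 0.160%, and ranked 55. miR-133a-3p had a median of 636 reads (4 to 19540), or 0.0426%, and ranked 86. miR-133b-3p had a median of 2 reads (0 to 119), ranked 345 and was at 0 reads in 346 of 899 samples (38.5%). Together the 4 members took a median of 0.934% of a sample's reads, with extremes of 0.00877% and 8.29%. These orders compare reads, since ligation and amplification favour some miRNA over others.

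Few miRNA varied as much between mice of one group. The standard deviation of log2 CPM within groups was 1.72 for miR-206-3p, 1.69 for miR-1a-3p and 1.60 for miR-133a-3p, against a median of 0.846 over the 483 miRNA, and these members ranked 2, 3 and 4. Among the 86 miRNA at least as abundant as miR-133a-3p, they ranked 1, 2 and 3, with miR-122-5p, a liver miRNA, next at 1.00 and a median of 0.531. miR-133b-3p had a standard deviation of 1.14 and ranked 30, with many samples at the lower limit of its scale. The highest level of miR-206-3p exceeded its lowest 2380-fold, that of miR-1a-3p 1655-fold and that of miR-133a-3p 696-fold.

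The level of a mouse at one time said little about its level at another. Over 1962 pairs of samples from the same mouse, the correlation of levels after removal of the group means was 0.0247 for miR-1a-3p, 0.0451 for miR-133a-3p, 0.0465 for miR-133b-3p and 0.0782 for miR-206-3p, with a median of 0.0692 over the 86 abundant miRNA. In the 89 mice with at least 5 samples, the lowest and highest sample of one mouse differed by a median of 4.40 log2 units for miR-1a-3p (21.2-fold), 4.33 for miR-206-3p (20.2-fold), 4.19 for miR-133a-3p (18.3-fold) and 2.68 for miR-133b-3p. The plot of levels by sample shows this spread in every group.

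**Figure D1:**
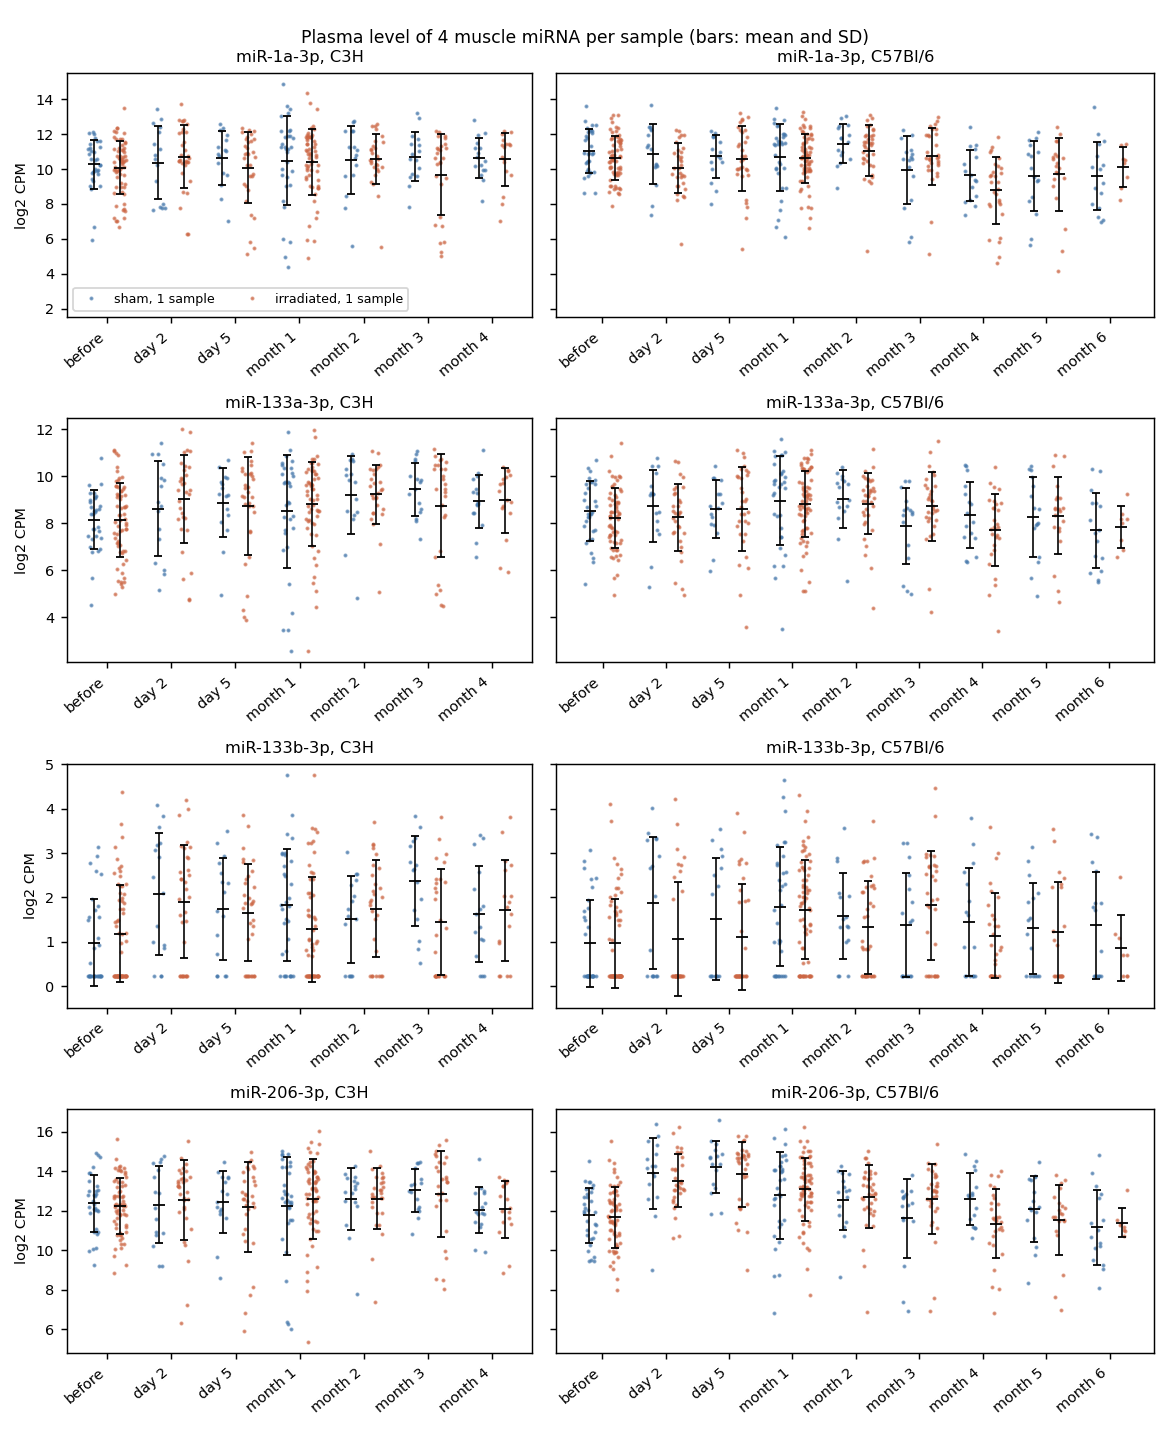
Level of each member in log2 CPM (vertical axes) for every sample by time point (horizontal axes), in C3H on the left and C57Bl/6 on the right, with sham samples in blue, irradiated samples in orange and black bars for the group mean and SD. The groups overlap throughout, miR-206-3p in C57Bl/6 is highest at day 2 and day 5 in both arms, and many miR-133b-3p samples sit at the lower limit of its scale.

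Within a sample the members moved together. After removal of group means, over the 899 samples, Pearson's r was 0.931 between miR-1a-3p and miR-133a-3p (Spearman's rho 0.918), 0.862 between miR-133a-3p and miR-206-3p (0.809) and 0.851 between miR-1a-3p and miR-206-3p (0.789). The rho of miR-133b-3p with the other members was 0.559 to 0.617. These points share the library and its scaling, and many share a mouse. Over the 192 mice sampled before exposure, one sample each, r was 0.898 for miR-1a-3p with miR-133a-3p (rho 0.887), 0.806 for miR-1a-3p with miR-206-3p (0.809) and 0.713 for miR-133a-3p with miR-206-3p (0.698). Leaving out the 2 samples farthest from the median gave r of 0.893, 0.798 and 0.694.

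Among the 479 other tested miRNA, the 3 with the highest Spearman's rho over the same 899 samples are given for each member. miR-378a-3p, encoded in an intron of Ppargc1b, came first for miR-1a-3p (0.718) and miR-133a-3p (0.734). miR-381-3p, of the imprinted Dlk1-Dio3 cluster, came first for miR-206-3p (0.600), and was second for miR-1a-3p (0.584) and miR-133a-3p (0.664). miR-149-5p ranked 3 for miR-1a-3p (0.576), miR-133a-3p (0.631) and miR-206-3p (0.554), and miR-382-5p, also of the Dlk1-Dio3 cluster, was second for miR-206-3p (0.566). The highest values for miR-133b-3p were 0.430 with miR-378a-5p, 0.428 with miR-378a-3p and 0.428 with miR-199a-3p. Summed miRNA of red blood cells gave rho of -0.170 to -0.002 with the members, of leukocytes -0.208 to -0.036, of liver -0.151 to -0.041, of endothelium 0.107 to 0.295 and of smooth muscle 0.014 to 0.177, and the total count gave 0.087 to 0.186.

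**Figure D2:**
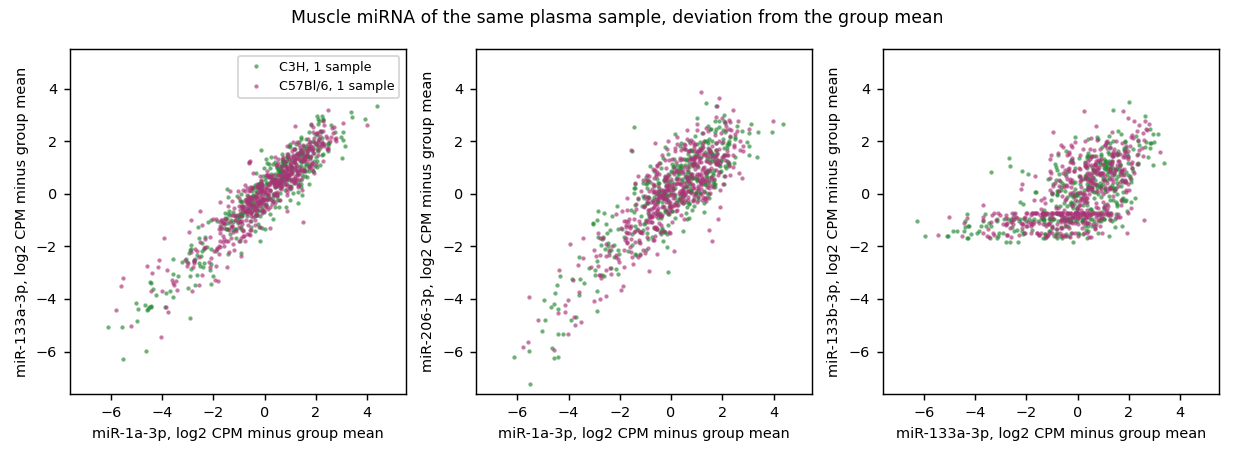
Deviation of each sample from its group mean in log2 CPM for miR-133a-3p against miR-1a-3p (left), miR-206-3p against miR-1a-3p (middle) and miR-133b-3p against miR-133a-3p (right), with C3H samples in green and C57Bl/6 samples in purple. The left panel is the tightest, with r of 0.931, and the bands at the bottom of the right panel are samples with few or no reads of miR-133b-3p.

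The first comparison asked whether irradiation of the thorax changed the plasma level of the muscle miRNA. It did not detectably do so at any time point in either strain. With p-values from the quasi-likelihood test of edgeR, adjusted by Benjamini-Hochberg over the 483 miRNA, 0 of 24 comparisons of a member passed an adjusted p of 0.05 in C3H, where 2.42% of all comparisons passed, and 0 of 32 in C57Bl/6, where 4.76% passed. At single time points 0.414% to 4.97% of miRNA passed in C3H and 0.414% to 14.1% in C57Bl/6. DESeq2 also called 0, and the unadjusted p was under 0.05 in 0 and 2 comparisons. No member differed between the arms before exposure, where 0 of the 483 miRNA passed in either strain.

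The 2 comparisons with an unadjusted p under 0.05 were both in C57Bl/6. At day 2, miR-1a-3p ranged from 5.69 to 12.22 in 32 irradiated mice (median 10.04) and from 7.35 to 13.67 in 16 sham mice (median 11.22). The groups overlapped over most of their range, with means of 10.06 ± 1.42 and 10.87 ± 1.72 (SD), and edgeR put irradiated mice lower by a log2 fold change of -1.01 (SE 0.433, 95% interval -1.86 to -0.16, adjusted p = 0.147). At month 4, miR-206-3p ranged from 6.85 to 14.02 in 29 irradiated mice (median 11.57) and from 10.61 to 14.85 in 16 sham mice (median 12.75). Here too the groups overlapped, and the log2 fold change was -1.04 (SE 0.443, 95% interval -1.91 to -0.17, edgeR adjusted p = 0.168). At month 3 the fitted value for the same miRNA had the opposite sign, +0.89 (95% interval -0.03 to 1.80).

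The 95% intervals, which are not adjusted for the number of miRNA, show the range of changes compatible with these data. Across the 6 time points of C3H, the fitted log2 fold change of miR-206-3p lay between 0.05 and 0.47 and its 95% intervals reached from -0.91 to 1.39, or 0.530-fold to 2.62-fold. miR-1a-3p lay between -0.58 and 0.03, with intervals from -1.47 to 1.03, and miR-133a-3p between -0.16 and 0.27, with intervals from -1.005 to 1.11. In C57Bl/6 the single intervals were about as wide, with a median width of 1.74 for miR-206-3p against 1.78 in C3H, but the fitted values scattered more. Over 8 time points the intervals reached from -2.02 to 1.80 for miR-206-3p, -1.86 to 1.501 for miR-1a-3p and -1.62 to 1.66 for miR-133a-3p. miR-133b-3p had the widest, from -3.12 to 1.86. The strain difference of the irradiation effect over the 6 shared time points was not called for any member (edgeR F test, smallest adjusted p = 0.691), where 4.35% of the 483 miRNA were called. Over the same comparisons, leukocyte miRNA fell in 9 and rose in 0 of 42 tests in C3H and fell in 6 and rose in 1 of 56 in C57Bl/6. Liver miRNA rose in 2 and fell in 1 of 24 in C3H and rose in 11 and fell in 3 of 32 in C57Bl/6.

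**Figure D3:**
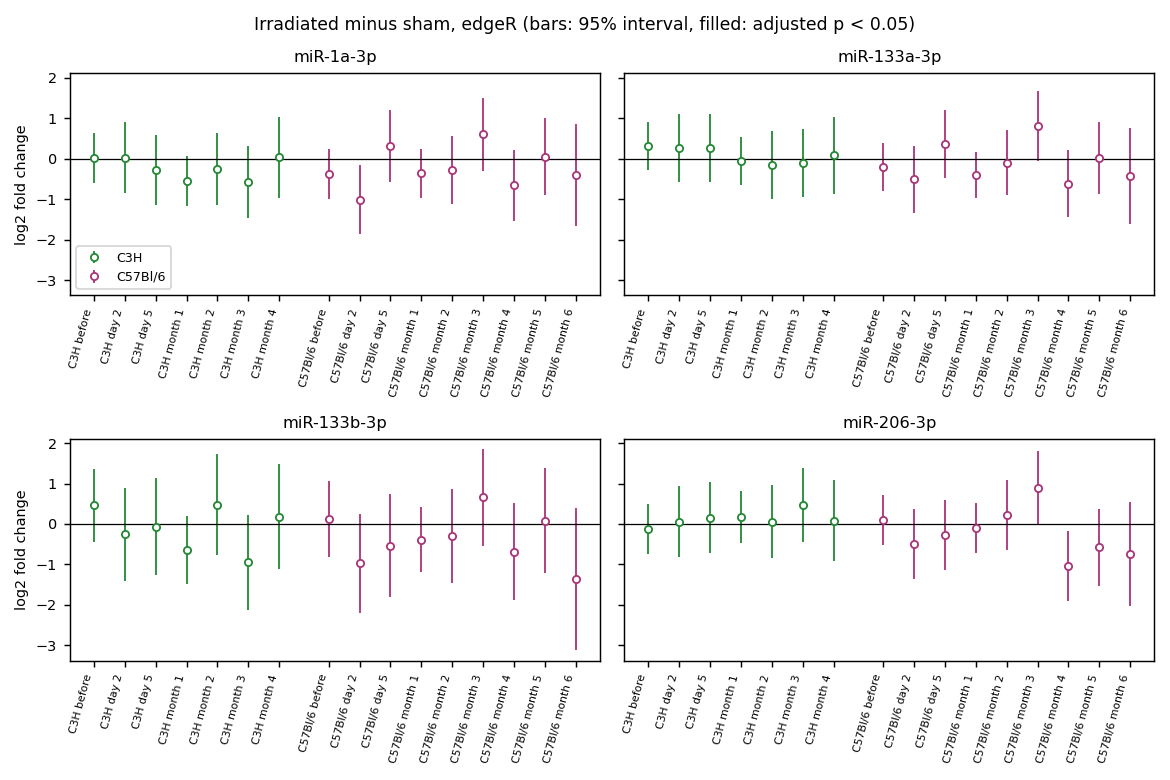
Log2 fold change of irradiated minus sham mice from edgeR (vertical axes) for each member at each time point of C3H (green) and C57Bl/6 (purple), with bars for the 95% interval and filled points for an adjusted p under 0.05. No point is filled, and all intervals but those of miR-1a-3p at day 2 and miR-206-3p at month 4 in C57Bl/6 include 0.

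Each arm was also compared with itself before exposure. Among sham mice, 8 of 24 comparisons of a member passed in C3H, where 26.2% of all comparisons passed, and 6 of 32 in C57Bl/6, where 26.9% passed. Among irradiated mice, 8 of 24 passed in C3H against 32.5% of all, and 9 of 32 in C57Bl/6 against 32% of all. The share was above the background in sham C3H mice and near or below it in the others. The falls among the calls were those of miR-1a-3p at month 4 in C57Bl/6, 1 in each arm, and the other calls were rises. Rises were 8 of 24 in each C3H arm, against 12.5% of all comparisons in sham and 15.1% in irradiated mice. In C57Bl/6 they were 5 of 32 in sham mice, against 15%, and 8 of 32 in irradiated mice, against 17.4%. The share of rises was thus above the background except in sham C57Bl/6, where it was near it. Whether it exceeded chance was not tested. With the mouse as a random block, 4 member calls were made in sham and 2 in irradiated C3H mice. The shares above are those of the edgeR fit, and the share of all miRNA called with the block is not given here.

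miR-206-3p was higher in sham C57Bl/6 mice soon after exposure than before it. Before exposure, the 32 sham C57Bl/6 mice ranged from 9.45 to 14.54 with a median of 11.96, or 0.362% of reads. At day 2 the 16 sham mice ranged from 9.004 to 16.39 with a median of 14.21, or 1.63% of reads, and at day 5 the other 16 ranged from 11.83 to 16.60 with a median of 14.52, or 2.25% of reads. Most later samples lay above the earlier median, with overlap at both ends. By edgeR the rise from the same arm before exposure was 2.24 log2 units at day 2 (SE 0.429, adjusted p = 8.55e-06), 2.35 at day 5 (SE 0.429, adjusted p = 8.65e-07) and 1.497 at month 1 (SE 0.372, adjusted p = 0.000595), or 4.74-fold, 5.09-fold and 2.82-fold. The day 2 value exceeded that of every other tested miRNA, and at day 5 1 of the 483 had a larger one. From month 2 to month 6 the fitted changes were 0.68, -0.02, 0.81, 0.42 and -0.02, and none was called. Those months hold G1 mice only, while the level before exposure pools G1 and G3, at 12.10 and 11.32 over both arms. Against each mouse's own earlier sample, the mean changes were lower, at 0.34, -0.57, 0.42, -0.10 and -1.02 (SD 2.03 to 2.70).

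Irradiated C57Bl/6 mice rose at the same times. The arm stood at 11.67 ± 1.53 before exposure (n = 64), 13.53 ± 1.34 at day 2 (n = 32), 13.84 ± 1.65 at day 5 (n = 32) and 13.08 ± 1.58 at month 1 (n = 68). The fitted rises were 1.65 (SE 0.304, edgeR adjusted p = 7.67e-07), 1.99 (SE 0.303, adjusted p = 1.83e-09) and 1.30 (SE 0.259, adjusted p = 5.65e-06). Smaller rises of 0.81 at month 2 and 0.77 at month 3 also passed (edgeR adjusted p = 0.0273 and 0.0358), and no later month did. Against each mouse's own earlier sample, the mean change was 0.56 ± 2.51 at month 2 (n = 32) and 0.61 ± 2.05 at month 3 (n = 27). With each mouse compared with its own earlier sample, miR-206-3p was higher in 13 of 16 sham mice at day 2 (median change 2.88), in 12 of 16 at day 5 (1.97) and in 20 of 32 at month 1 (1.08). In irradiated mice it was higher in 28 of 32 (2.60), 26 of 32 (2.12) and 52 of 64 (1.34).

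The rise was present in both C57Bl/6 title sets, though less often called in the smaller fits. In sham mice of set G1 it was 1.88 at day 2 (edgeR adjusted p = 0.0180), 1.46 at day 5 (adjusted p = 0.0701) and 1.00 at month 1 (adjusted p = 0.263). In set G3 it was 2.64, 3.33 and 1.88, all called. Irradiated mice gave 1.59 and 1.72 at day 2 and day 5 in G1 and 1.81 and 2.33 in G3, all called, while at month 1 the rise was 0.83 in G1 (adjusted p = 0.0937) and 1.80 in G3 (called). All 3 rises stayed called in both arms with the mouse as a fixed or random block, at 1.04 to 2.53 in sham and 1.40 to 2.25 in irradiated mice (limma-voom). Other classes of miRNA moved at the same times, and their part in the result was not tested. From before exposure to day 2 and day 5 in sham C57Bl/6, the median share of red blood cell miRNA went from 54.6% to 52.2% and 52.3%, of leukocyte miRNA from 2.39% to 1.67% and 1.85%, and of the smooth muscle pair miR-143-3p and miR-145a-5p from 2.21% to 1.01% and 1.07%.

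miR-1a-3p, which has the same seed, was not called higher at these times in C57Bl/6 over all mice. Its fitted change in sham mice was 0.10 at day 2, -0.40 at day 5 and -0.0022 at month 1, none called. In irradiated mice it was -0.53, 0.29 and 0.02. The title sets parted at day 5, where irradiated mice gave 1.02 in G3 (SE 0.396, edgeR adjusted p = 0.0355) and -0.96 in G1 (adjusted p = 0.101). Over all mice its only calls in C57Bl/6 were falls at month 4. Sham mice went from 11.03 ± 1.25 (n = 32) to 9.65 ± 1.46 (n = 16), a log2 fold change of -1.19 (SE 0.471, edgeR adjusted p = 0.0419), which became -1.27 (adjusted p = 0.0556, limma-voom) with each mouse as a block. Under that block the falls of -1.32 at month 5 and -1.34 at month 6 were called (limma-voom adjusted p = 0.0396 and 0.0287). Irradiated mice went from 10.63 ± 1.26 (n = 64) to 8.78 ± 1.90 (n = 29) at month 4, a log2 fold change of -1.48 (SE 0.352, edgeR adjusted p = 0.000194), and this was the lowest group mean of miR-1a-3p in the series.

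miR-133a-3p rose in sham C3H mice, from 8.15 ± 1.25 before exposure (n = 32) to between 8.51 and 9.45 later. The change passed the test at day 2 (1.04, SE 0.410, edgeR adjusted p = 0.0451), month 1 (1.05, adjusted p = 0.0112), month 2 (1.19, adjusted p = 0.0246) and month 3 (1.22, adjusted p = 0.0161). With the mouse as a fixed block, the day 2 and month 1 calls were lost, and month 4 was called instead (1.32, limma-voom adjusted p = 0.0134). In irradiated C3H mice it rose at day 2 (1.00), day 5 (0.71), month 1 (0.67) and month 3 (0.79) by edgeR. The title sets differed here. At month 1 the rise was 1.69 in G2 (edgeR adjusted p = 3.05e-05) and 0.05 in G4 (adjusted p = 0.945), at day 5 it was 1.17 in G2 (called) and 0.49 in G4, and at day 2 it was 1.33 in G2 (called) and 0.88 in G4 (adjusted p = 0.0686). In sham C3H mice the day 2 and month 1 rises were 0.88 to 1.20 in the sets and were called in neither. The fixed block dropped day 5 (limma-voom adjusted p = 0.0852) and added month 2 (1.74, adjusted p = 1.81e-05) and month 4 (1.33, adjusted p = 0.0053). The C3H title sets started apart, at 7.39 ± 1.29 in G2 and 8.90 ± 1.25 in G4 before exposure (n = 48 each), and only G2 mice were sampled from month 2 on. In C57Bl/6 its only call was at month 1 in irradiated mice (0.58, SE 0.242, edgeR adjusted p = 0.0455), which was lost with the block (limma-voom adjusted p = 0.0513), where month 2 (0.83, adjusted p = 0.0322) and month 3 (0.81, adjusted p = 0.0439) were called.

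The scarce miR-133b-3p rose in sham mice of both strains, by 1.73 at day 2, 1.43 at month 1 and 1.77 at month 3 in C3H and by 1.60 at day 2 and 1.57 at month 1 in C57Bl/6 (edgeR adjusted p of 0.0134 to 0.0446). The C57Bl/6 day 2 call was lost with the mouse as a fixed block (limma-voom adjusted p = 0.0617) and as a random one (adjusted p = 0.156), and the month 1 call with the random block (adjusted p = 0.0599). In C3H the fixed block added month 4 (1.21, adjusted p = 0.0390). Within title sets, the calls up to month 1 were those of sham G2 mice at day 2 (2.26, against 1.37 in G4), sham G3 mice at month 1 (2.20, against 0.84 in G1), irradiated G4 mice at day 2 (1.41, against 0.50 in G2) and irradiated G3 mice at month 1 (1.62, against 0.44 in G1). Its counts were small. In sham C3H mice it had 0 reads in 17 of 32 samples before exposure and in 0 of 16 at month 3, when the median was 9 reads. In irradiated mice it rose by 1.01 at day 2 in C3H, lost with the fixed block (limma-voom adjusted p = 0.169), and by 1.07 at month 1 and 1.31 at month 3 in C57Bl/6. miR-1a-3p in C3H rose in sham mice at month 1 (1.17, edgeR adjusted p = 0.00717) and in irradiated mice at day 2 (0.76, adjusted p = 0.0392), and neither call was kept with the mouse as a block. Each was found in 1 title set. The sham rise at month 1 was 0.01 in G2 and 1.69 in G4 (edgeR adjusted p = 0.0085), and the irradiated rise at day 2 was 1.55 in G2 (adjusted p = 0.00137) and 0.16 in G4. miR-206-3p had no call in sham C3H mice, with fitted changes of -0.52 to 0.35, and rose in irradiated ones by 0.64 at month 1 and 0.94 at month 3 (edgeR adjusted p = 0.0427 and 0.0184). The month 1 call was lost with the fixed block (limma-voom adjusted p = 0.183). The month 3 mice were of G2 only, while the level before exposure pools G2 and G4, at 12.65 and 11.95 over both arms. Against each mouse's own earlier sample, the mean change of irradiated mice at month 3 was 0.40 ± 2.69 (higher in 17 of 27).

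**Figure D4:**
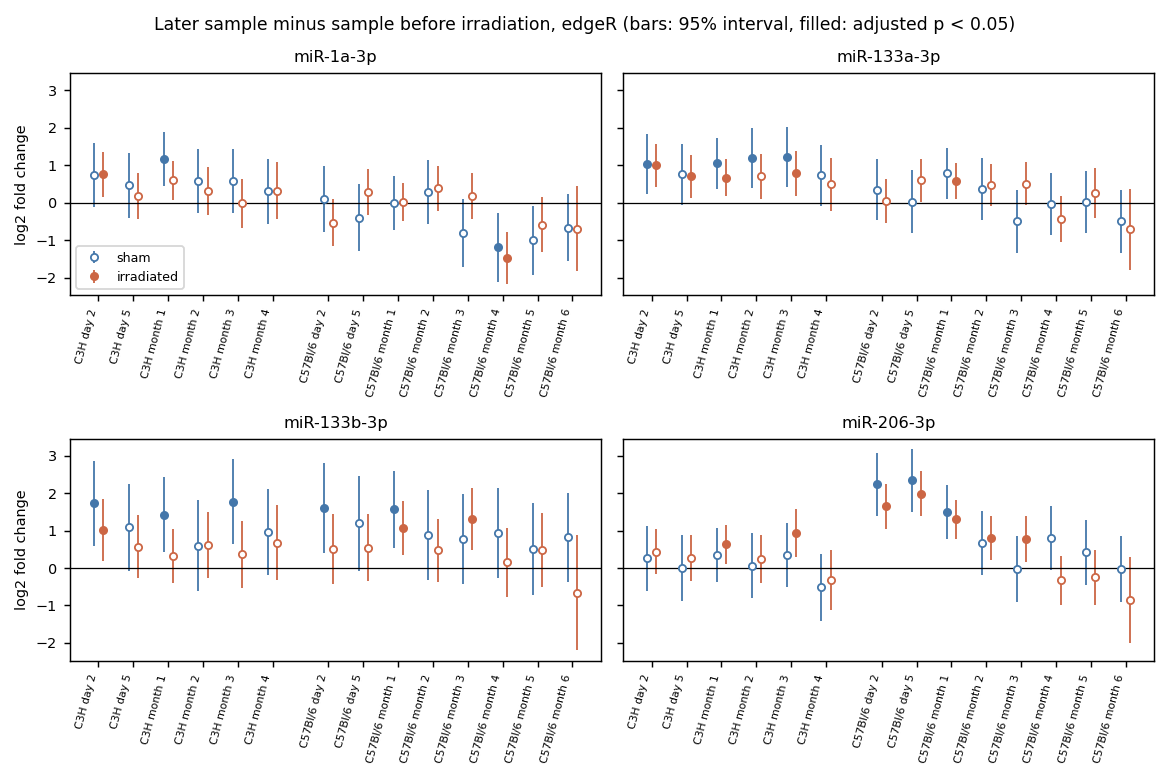
Log2 fold change from the same arm before exposure, from edgeR (vertical axes), for each member at each later time point, with sham mice in blue, irradiated mice in orange, bars for the 95% interval and filled points for an adjusted p under 0.05. The filled points of miR-206-3p in C57Bl/6 at day 2, day 5 and month 1 stand at 1.30 to 2.35 in both arms, while those of miR-1a-3p in C57Bl/6 lie below 0 at month 4.

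The change of miR-206-3p with time was called different between strains, as was that of many other miRNA. In sham mice, an F test joining day 2 to month 4 (6 shared time points) called the difference of the change between strains (edgeR adjusted p = 0.00141), as it did for 43.5% of the 483 miRNA. The C57Bl/6 change exceeded the C3H change by 1.98 at day 2 (SE 0.639), 2.35 at day 5 (SE 0.642) and 1.14 at month 1 (SE 0.517). In irradiated mice the test called miR-206-3p (edgeR adjusted p = 0.00226) and miR-1a-3p (adjusted p = 0.00109), among 54.7% of all miRNA. For miR-1a-3p the C57Bl/6 change was lower by 1.29 at day 2 (-1.29, SE 0.449) and by 1.80 at month 4 (-1.80, SE 0.506). With the mouse as a random block, miR-133b-3p was called as well (limma-voom adjusted p = 0.0115). Neither irradiated call was kept in sets G3 and G4 alone, and the sham call was not kept in males. Within C3H, the change of miR-206-3p differed in sign between the title sets. It was -0.34, -0.50 and -1.08 at day 2, day 5 and month 1 in sham G2 mice, none called, and 1.03, 0.80 and 1.61 in sham G4 mice, the last called (edgeR adjusted p = 0.0180). Irradiated mice at month 1 gave -0.43 in G2 and 1.503 in G4 (adjusted p = 0.000372). These G4 rises at month 1 lay between those of the C57Bl/6 sets G1 and G3, 1.00 and 1.88 in sham mice and 0.83 and 1.80 in irradiated ones.

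Before exposure 2 of 4 members were called different between strains, where 50.7% of all miRNA were. miR-1a-3p was 10.77 ± 1.26 in 96 C57Bl/6 mice and 10.15 ± 1.49 in 96 C3H mice, and edgeR put C57Bl/6 higher by 0.58 (SE 0.224, adjusted p = 0.0225). By title set, G1 stood at 10.94 against 9.70 in G2, while G3 and G4 were level at 10.59 and 10.60 (n = 48 each). miR-206-3p was 11.71 ± 1.48 in C57Bl/6 and 12.30 ± 1.42 in C3H, a log2 fold change of -0.55 (SE 0.224, edgeR adjusted p = 0.0313). That call was kept in 1 of 11 alternative fits, and in females alone the sign was positive (0.0602). The differences of miR-133a-3p (0.13) and miR-133b-3p (-0.24) were not called. For miR-133a-3p the sign turned between the sets, with 8.36 in G1 against 7.39 in G2 and 8.28 in G3 against 8.90 in G4. In sham mice after exposure, 1 of 24 comparisons between strains passed (22% of all comparisons, 10.8% higher in C57Bl/6), miR-206-3p at day 5. Sham C57Bl/6 mice stood at 14.22 ± 1.30 and sham C3H mice at 12.45 ± 1.56 (n = 16 each), a log2 fold change of 1.70 (SE 0.529, edgeR adjusted p = 0.00602). With the mouse as a random block, 4 passed, the others being miR-206-3p at day 2 (1.58, limma-voom adjusted p = 0.0303) and, lower in C57Bl/6 at month 3, miR-133a-3p (-1.59, adjusted p = 0.0361) and miR-133b-3p (-1.64, adjusted p = 0.0425). The share of all comparisons that passed with that block is not given here.

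Females and males were not called different before exposure for any member in either strain, where 13.3% of the miRNA tested with sex in the model were called in C3H and 12.2% in C57Bl/6. The smallest p was that of miR-206-3p in C57Bl/6, at 11.90 ± 1.63 in 48 females and 11.52 ± 1.29 in 48 males (log2 fold change 0.62, SE 0.314, edgeR adjusted p = 0.201). In C3H the fitted difference had the opposite sign (-0.60, SE 0.314, adjusted p = 0.188). Whether the difference itself differed between strains was not tested.

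Ordering the 32 groups by mean level put miR-206-3p highest in sham C57Bl/6 at day 5 (14.22) and lowest in sham C57Bl/6 at month 6 (11.17 ± 1.89). miR-1a-3p was highest in sham C57Bl/6 at month 2 (11.46 ± 1.13) and lowest in irradiated C57Bl/6 at month 4 (8.78). miR-133a-3p was highest in sham C3H at month 3 (9.45 ± 1.12) and lowest in sham C57Bl/6 at month 6 (7.70 ± 1.60). miR-133b-3p was highest in sham C3H at month 3 (2.37 ± 1.01) and lowest in irradiated C57Bl/6 at month 6 (0.85 ± 0.75). Groups next to each other in these orders differed by less than the spread within either.

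The ratios of miR-206-3p and of miR-133a-3p to miR-1a-3p within a sample varied less between mice than the levels did. That of miR-133b-3p to miR-133a-3p did not, with an SD before exposure of 1.66 in C3H and 1.32 in C57Bl/6. The log2 ratio of miR-206-3p to miR-1a-3p reads, with 0.5 added to each count, needs no library scaling. Before exposure it was 2.15 ± 1.01 in 96 C3H mice and 0.94 ± 0.75 in 96 C57Bl/6 mice, medians of 4.20 and 1.89 reads of miR-206-3p per read of miR-1a-3p. The difference of -1.21 gave p = 1e-05 by a two-sided permutation test, the smallest that 100000 permutations can give (adjusted p = 0.000225 over 45 ratio comparisons). It had the same sign in the sets followed past month 1 and in the others, with 1.16 ± 0.73 in G1 against 2.95 ± 0.68 in G2, and 0.73 ± 0.71 in G3 against 1.35 ± 0.54 in G4 (n = 48 each). The ratio of miR-133a-3p to miR-1a-3p was also lower in C57Bl/6, -2.45 ± 0.63 against -2.01 ± 0.62 (difference -0.44, permutation p = 1e-05, adjusted p = 0.000225).

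In C57Bl/6 the ratio of miR-206-3p to miR-1a-3p rose in nearly every mouse soon after exposure, sham or irradiated. Compared with its own earlier sample, it rose in 16 of 16 sham mice at day 2, by 1.24 to 4.64 and on average 2.43 ± 1.10, and in 16 of 16 at day 5, by 1.60 to 4.09 and on average 2.59 ± 0.73. Both gave an exact two-sided sign-flip permutation p of 3.05e-05, the smallest that 16 mice allow (adjusted p = 0.000114 over 56 tests). At month 1 it had risen in 30 of 32 (1.35 ± 0.82). Irradiated mice rose in 32 of 32 at day 2 (2.94 ± 0.97), 30 of 32 at day 5 (1.69 ± 1.19) and 58 of 64 at month 1 (1.51 ± 1.13). The medians were 7.82 and 12.96 reads of miR-206-3p per read of miR-1a-3p at day 2 and day 5 in sham mice, and 13.7 and 8.48 in irradiated ones. The direction was the same in G1 and G3. In sham mice the rise averaged 2.54 and 2.32 at day 2, 2.77 and 2.41 at day 5, and 1.35 in both at month 1.

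The ratio fell back at month 2 and was high again at month 4 and month 5. In sham C57Bl/6 at month 2 it exceeded the earlier value in 9 of 16 mice (0.12 ± 1.48, exact permutation p = 0.752), then in 13 of 16 at month 3 (0.73 ± 0.76), 15 of 16 at month 4 (2.01 ± 1.22) and 16 of 16 at month 5 (1.55 ± 0.81). At month 6 it was higher in 10 of 16 (0.63 ± 1.11, exact permutation adjusted p = 0.0555). Irradiated mice followed with 23 of 32 at month 2 (0.43 ± 1.06, permutation adjusted p = 0.0446) and 23 of 27 at month 3 (0.67 ± 0.80). The ratio was higher in 23 of 25 at month 4 (1.42 ± 1.07) and 16 of 18 at month 5 (0.83 ± 1.04). These irradiated changes from month 2 to month 5 were all called. At month 6 it was higher in 4 of 8 irradiated mice (0.18 ± 1.44, exact permutation p = 0.727).

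In C3H the same ratio moved in opposite directions in the title sets, so that the pooled averages near 0 describe neither. In G2 it was 2.95 ± 0.68 before exposure and 1.55 ± 0.64, 1.97 ± 0.76 and 1.84 ± 0.69 at day 2, day 5 and month 1. In G4 it was 1.35 ± 0.54 before exposure and 2.18 ± 0.94, 2.06 ± 0.87 and 2.23 ± 1.42 at those times. Among irradiated mice at month 1, 2 of 30 in G2 and 23 of 28 in G4 were above their own earlier value. Sham mice parted less at that time, with 1 of 16 above it in G2 (-1.04 ± 0.68) and 9 of 16 in G4 (0.33 ± 1.20). From month 2 on, with G2 mice only, the ratio was lower than before exposure in sham mice at month 2 (-0.71 ± 1.04) and month 4 (-1.38 ± 1.21, higher in 2 of 16) and in irradiated mice at month 2 (-1.02 ± 1.16) and month 4 (-1.36 ± 1.04, higher in 2 of 17), all called by permutation.

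Among the 45 ratio comparisons, 1 of those between irradiated and sham mice passed. At month 3 in C3H, miR-206-3p to miR-1a-3p stood at 3.18 ± 0.77 in 27 irradiated mice and 2.31 ± 0.81 in 16 sham mice, a difference of 0.87 (permutation p = 0.00089, adjusted p = 0.0133 over 45). The groups overlapped, at 1.87 to 5.42 in irradiated and 1.22 to 4.20 in sham mice. Females and males gave similar differences, 0.87 and 0.88, and all of these mice were of set G2. Against each mouse's own earlier sample, the irradiated mice changed by 0.11 ± 1.13 (higher in 12 of 27). The sham mice changed by -0.46 ± 0.95 (higher in 5 of 16), and neither change was called by permutation. Whether these own changes differed between the arms was not tested. The levels themselves were not called different at that time (miR-206-3p 0.47, miR-1a-3p -0.58), and no other month showed a called difference.

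**Figure D5:**
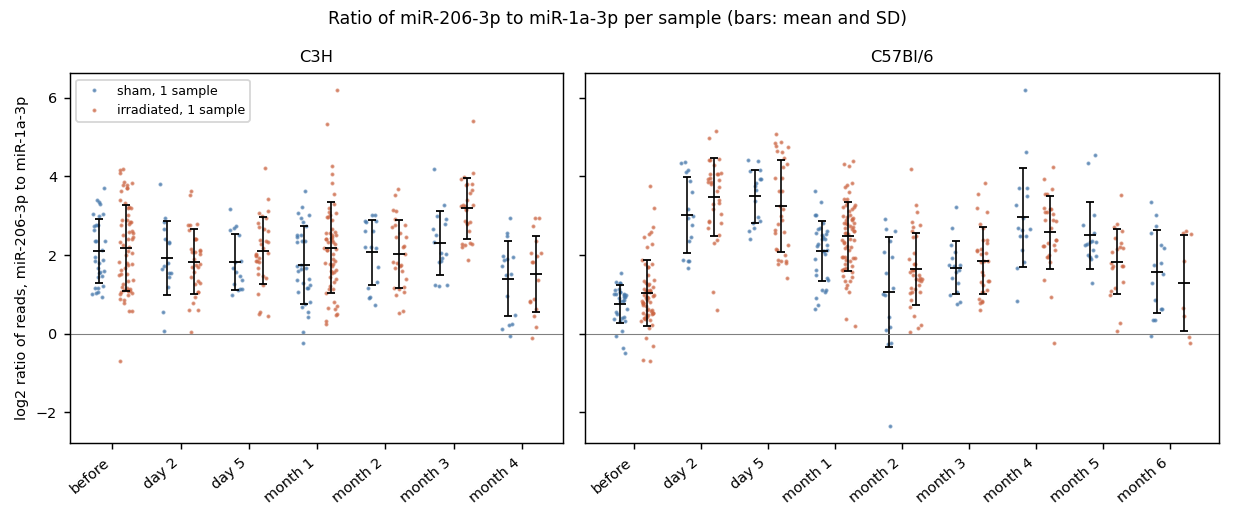
Log2 ratio of miR-206-3p to miR-1a-3p reads (vertical axis) in every sample by time point, in C3H (left) and C57Bl/6 (right), with sham samples in blue, irradiated samples in orange and black bars for the mean and SD. In C57Bl/6 both arms move from means of 0.75 and 1.04 before exposure to means of 3.02 to 3.495 at day 2 and day 5, while C3H pools title sets that moved in opposite directions.

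The ratio of miR-133a-3p to miR-1a-3p, whose genes are paired, also rose in most mice at day 2 and at several late time points. At day 2 it was above the earlier value in 14 of 16 sham and 23 of 32 irradiated C3H mice. In C57Bl/6 it was then above in 13 of 16 and 29 of 32, and each of these changes was called by permutation. Among the irradiated C3H mice at day 2, it rose in 9 of 16 in G2 and 14 of 16 in G4. In C57Bl/6 it was above the earlier value in 16 of 16 sham mice (1.44 ± 0.41) and 25 of 25 irradiated mice (1.54 ± 0.67) at month 4, and in 15 of 16 (1.41 ± 0.71) and 18 of 18 (1.19 ± 0.82) at month 5. In C3H it was above in 15 of 16 sham (1.10 ± 0.74) and 27 of 28 irradiated mice (0.86 ± 0.59) at month 2, and in 15 of 16 (1.17 ± 0.86) and 26 of 27 (1.30 ± 0.74) at month 3. Over both ratios, 39 of 56 changes from the mouse's own earlier sample passed. Sham and irradiated mice moved alike in direction at each of these times. At day 5 the ratio in C3H was above the earlier value in 9 of 16 sham mice (0.21 ± 0.59, not called). Among irradiated C3H mice it was above in 25 of 32 (0.46 ± 0.63, permutation adjusted p = 0.000717). In C57Bl/6 the ratio was then above the earlier value in 10 of 16 sham (0.24 ± 0.78) and 20 of 32 irradiated mice (0.08 ± 0.83), neither called, and the sham sets parted, with 8 of 8 higher in G1 (0.79) and 2 of 8 in G3 (-0.31). The sets of C3H again differed at month 1, where this ratio rose in 14 of 16 sham G2 mice and in 3 of 16 sham G4 mice.

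Other products of the same genes were rare. Of 7 other miRNA of the miR-1, miR-133 and miR-206 genes, 1 passed the filter, miR-1a-1-5p, the opposite arm of the miR-1a-1 precursor, with reads in 707 of 899 samples and a median of 5. It followed miR-133a-3p with a rho of 0.607 and miR-1a-3p with 0.548, was called in no comparison of irradiated with sham mice, and fell in sham C57Bl/6 at month 6 (-1.44, SE 0.591, edgeR adjusted p = 0.0464). The opposite arms of the skeletal muscle pair had reads in 31 (miR-206-5p) and 61 (miR-133b-5p) samples, with at most 7 and 9 reads.

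Of 6 miRNA encoded in myosin heavy chain genes of heart and slow muscle, 3 passed the filter. miR-499-5p, from Myh7b, had a median of 30 reads and followed miR-133a-3p with a rho of 0.590. It was called in no comparison of irradiated with sham mice, and it fell with time in sham C3H at month 3 (-1.15) and month 4 (-1.21) and in sham C57Bl/6 at month 2 (-1.14), month 5 (-0.89) and month 6 (-1.51). miR-208b-3p, from Myh7, was read in 328 samples. miR-208a-3p, from Myh6 and specific to heart muscle, was read in 242 samples with a median of 0, and its rho with the members was -0.006 to 0.065. The model called it higher in irradiated than in sham C57Bl/6 at day 5 and month 4 (edgeR adjusted p = 0.0134 and 0.00032), when 14.1% and 4.76% of all miRNA were called. At day 5 it had 29 reads in 9 of 32 irradiated samples and 0 reads in 16 sham samples, or 4.21-fold a floor of 3 reads over the sham group. At month 4 it had 58 reads in 9 of 29 irradiated samples and 0 in 16 sham samples, or 9.77-fold the same floor. These folds set the pooled irradiated reads, without their error or the spread between mice, against that floor, so they are not lower limits. Most irradiated samples at both times had no read, and before exposure the arms had 0.528 (sham) and 0.453 (irradiated) CPM without library scaling. The remaining 3, miR-208a-5p, miR-208b-5p and miR-499-3p, had 0 reads in every sample.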

How the data were processed

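Small RNA libraries from mouse plasma were sequenced by the authors, who prepared them with the QIAseq miRNA kit and counted them with the BaseSpace Small RNA application. The deposited table holds raw read counts per mature miRNA, 1 column per sample, aligned to mm10 per the labels. Whether molecular tags were collapsed is not given in the sources used here. Plasma over a hemolysis limit and runs with too few miRNA reads had been left out by the authors.

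The counts were tested with edgeR 4.0.16 in R 4.3.3: filterByExpr by group, TMM scaling, 32 group means over all 899 samples, quasi-likelihood tests and Benjamini-Hochberg adjustment over the 483 miRNA of each contrast, at an adjusted p of 0.05. Alternatives used DESeq2 1.42.0 and limma 3.58.1, other scalings, filters, covariates and subsets. Scripts were tested on simulated data. Log2 CPM used a prior count of 2 and ratios a pseudocount of 0.5, tested with 100000 permutations, or all sign patterns for up to 16 mice.

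Samples with the same mouse label came from the same animal, so that mouse was also fitted as a block (estimated correlation 0.0434). The comparisons of irradiated mice with their own arm before exposure, the strain differences of change and the own-mouse ratio tests were added after the data were examined. Named miRNA were the 4 members, the tested miRNA of the other-arm and myosin-gene lists, and the 3 nearest by correlation; miR-122-5p was named after its values were seen. Members and lists were chosen with earlier results of these data known. Intervals of counts cover counting error only.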

Additional observations from a re-analysis of the deposited data

Results flagged for a closer look

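In the 8 irradiated C57Bl/6 mice at month 6, the only group of 4 to 10 samples, the highest sample stood apart for 2 of the 4 members. For miR-206-3p it was at 13.06 log2 CPM, and its gap to the next sample was 0.659 of the group's range. For miR-133b-3p it was at 2.46, with a gap of 0.580 of the range, against a limit of 0.526 for 8 samples. Chance marks about 1 in 20 such groups in a single test. Here 4 tests, 1 per member, were run on the same 8 samples, and the members moved together within a sample. The level of miR-133b-3p in this group (0.85 ± 0.75) was also near the lower limit of its scale.

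The change from before exposure differed between strains by an F test joining the 6 shared time points for miR-206-3p in sham mice (edgeR adjusted p = 0.00141), and for miR-1a-3p (adjusted p = 0.00109) and miR-206-3p (adjusted p = 0.00226) in irradiated mice. These tests were chosen after the data were seen, and the C3H title sets moved miR-206-3p in opposite directions.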

How the results depend on the processing

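No alternative called a member between irradiated and sham mice, between the sexes or in the strain difference of the irradiation effect, and the counts of called ratios (3 and 39) did not move. Of 2596 member values under alternatives, 159 lost and 61 gained a call, and 284 values that were not called changed sign. The sign turned for 5 values of called results: miR-206-3p in irradiated C3H at month 1 was -0.38 with title sets G1 and G2 only, -0.43 with these fitted apart and -0.15 in males; in irradiated C57Bl/6 at month 2 it was -0.16 in females; and its strain difference before exposure was 0.0602 in females. Member calls over time in sham C3H went from 8 to 4 with RPM and quantile normalization, with limma-voom and with the mouse as a random replicate block, and to 0 in females; with G2 or G4 apart, 1 and 2 of 12 were called against 5. The fixed mouse block gave 7. In sham C57Bl/6, 6 became 3 with G1 only, 3 in females and 2 in males, and 1 with G1 fitted apart, against 5. In irradiated C3H, 8 became 4 without the filter and with RPM, 2 with limma-voom, the mouse block and in females, 1 in males, and 3 with G4 apart, against 6. In irradiated C57Bl/6, 9 became 3 with G1 only and in females, and 2 with G1 apart, against 5. The 2 strain calls before exposure became 1 in 9 alternatives (DESeq2 and its size factors, scaling without red cell miRNA, no filter, RPM, limma-voom, mouse block, either sex). The 1 strain call in sham mice became 2 with size factors, RPM, covariates and in females, 3 with limma-voom and DESeq2, 4 with the mouse block and 0 in males. The strain difference of change went from 1 to 2 with covariates and with G1 and G2 only and to 0 in males (sham), and from 2 to 0 with G3 and G4 apart (irradiated). The cause of these shifts was not tested, and the subsets also held fewer samples. The share of all miRNA called under each alternative is not given here. The counts therefore do not show whether the members lost or gained more calls than other miRNA. The low counts of miR-133b-3p, a median of 2 reads, limit its precision.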
